A study of Mus musculus with 24 samples.

Results

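Cytosolic ribosomal proteins were followed in the inguinal fat pad, a subcutaneous depot of white adipose tissue, of young mice. The members were the genes whose symbol begins with Rpl, Rps, Rplp or Rpsp followed by a digit, with the Rps6k kinases left out. This rule found 89 of the 16118 genes listed, all of which passed the filter on low read numbers. By their symbols 42 belong to the large 60S subunit, 30 to the small 40S subunit and 3 to the P stalk. Another 6 are paralogs, 7 are pseudogene or retrogene copies, and Rps19bp1 encodes a protein that binds RPS19 and is not itself part of the ribosome.

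Poly(A) RNA of 24 mice was sequenced with 1 library per mouse, in 6 groups of 4 animals. Both sexes were sampled at postnatal day 21 (p21) and at day 28. The day 28 mice had either been taken from their mother at p21, which is called standard weaning (SW) here, or had stayed with their mother, called delayed weaning (DW). The labels give no strain, genotype or further treatment, and no group is described as differing in anything but sex, age and weaning. Animals are named by their numbers in the labels. These run from 30 to 56 at p21 and from 73 to 124 at day 28, so age and the run of animal numbers cannot be told apart. The adipocyte markers Adipoq, Plin1, Cidec and Fabp4 were present at high values, with group means of 794 to 1411 for Adipoq, and the mean over the 8 adipocyte markers ranged from 9.73 to 10.59 on the log2(value + 1) scale.

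Every ribosome is built from 1 copy of nearly all of these proteins on a scaffold of ribosomal RNA, so their mRNAs are made at high and matched levels. Most of these mRNAs begin with a cytosine followed by a run of pyrimidines, the terminal oligopyrimidine (TOP) tract, through which mTORC1 and LARP1 set how much of each mRNA is translated. The amount of these mRNAs therefore describes the capacity to make ribosomes, and says nothing by itself about protein output. In growing tissue the ribosomal protein genes and the nucleolar factors that process ribosomal RNA are usually expressed together.

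Sequence around the annotated start was available from RefSeq (GRCm38.p6) for 64 of the 89 members. A C followed by at least 4 further C or T, with its first base no more than 5 bases from the start, was found in 30 of them (46.9%), against 18.5% of 27025 genes with such a window. Exactly at the start it was found in 13 members (20.3%), against 2.48% of all windows. The letters CCGGAAG, searched on both strands of 300 bases (250 before the start and 50 after it), were found in 24 members (37.5%) and in 9.14% of all windows. A match describes letters only and is not evidence of a bound factor. The 9 members on which the results below turn are shown as 60 bases from 40 before the start, with the pyrimidine run in capitals where there is one. They set the long run of Rps6 beside Rpl36a, which fell in the same animals and has none within 5 bases of the annotated start. Further downstream the Rpl36a window holds the letters cttcc. Of the 18 members called lower in DW than in p21 males below, 16 had a window and 8 of these had a run, a share near that of all members.
Rps6: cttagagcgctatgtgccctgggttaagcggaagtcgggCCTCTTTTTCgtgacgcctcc
Rpl12: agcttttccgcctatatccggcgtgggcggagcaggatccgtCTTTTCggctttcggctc
Rps2: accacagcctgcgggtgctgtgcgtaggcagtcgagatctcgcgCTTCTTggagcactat
Rps21: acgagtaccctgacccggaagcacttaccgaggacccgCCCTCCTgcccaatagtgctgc
Rpl36a: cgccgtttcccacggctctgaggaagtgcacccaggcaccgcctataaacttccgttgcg
Rps27: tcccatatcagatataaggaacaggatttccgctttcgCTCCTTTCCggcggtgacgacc
Rpl39: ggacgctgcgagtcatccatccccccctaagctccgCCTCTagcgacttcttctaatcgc
Rpl22l1: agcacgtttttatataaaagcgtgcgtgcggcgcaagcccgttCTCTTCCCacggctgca
Rpl3l: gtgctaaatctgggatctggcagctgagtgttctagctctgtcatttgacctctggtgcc
In GRCm38.p6 these windows lie at chr4:86857348-86857407 on the minus strand for Rps6, chr2:32961672-32961731 on the plus strand for Rpl12 and chr17:24720023-24720082 on the plus strand for Rps2. The window of Rps21 is chr2:180257339-180257398 (plus), that of Rpl36a chrX:134585614-134585673 (plus) and that of Rps27 chr3:90213629-90213688 (minus). Rpl39 is at chrX:37085203-37085262 (minus), Rpl22l1 at chr3:28805468-28805527 (plus) and Rpl3l at chr17:24727786-24727845 (plus). Each spans the annotated start of the gene, with promoter before it and the first transcribed bases after it. The run was 10 bases long in Rps6, 9 in Rps27, 8 in Rpl22l1, 7 in Rps21, 6 in Rpl12 and in Rps2, and 5 in Rpl39. Rpl36a and Rpl3l had no such run near the annotated start.

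The deposited value of a gene is its read number divided by 1 factor per library, not corrected for gene length, so values are compared between animals and not between genes. Recovered reads in the listed genes ranged from 57600711 to 302145813 per library. The libraries of DW females 82 and 83 stood apart across the transcriptome: of 13152 genes with a mean value of at least 1, both were above all other 22 animals in 12.7% and below them in 14%. p21 male 53 and SW male 84 had the fewest genes detected, 14054 and 15497, against at least 15859 in the others. Counts and medians of the members are also given without them where that moves the value by over 1.5 times. Apart from ribosome biogenesis, the other gene lists were counted in the main fit only. The analysis is of whole tissue, in which fewer cells of a type and less RNA per cell cannot be told apart.

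The share of all recovered reads that fell in the 89 members was lowest in day 28 males. It was 2.82% ± 0.41 (SD, n = 4) in p21 males, 2.01% ± 0.226 in SW males and 1.92% ± 0.337 in DW males. In females it was 2.55% ± 0.498 at p21, 2.46% ± 0.328 after SW and 2.61% ± 0.292 after DW. The p21 males (2.3% to 3.22%) did not overlap the SW males (1.7% to 2.22%) or the DW males (1.44% to 2.17%), whereas the female groups overlapped. Summarised instead as each animal's median log2 deviation over the 85 members with a mean value of at least 1, p21 male 37 lay at -0.19. That is within the ranges of the SW males (-0.33 to 0.03) and the DW males (-0.62 to -0.11). The mitochondrial share of the summed values was 13.2% to 20.9% in p21 males, 23.7% to 25.5% in SW males and 17.7% to 23.3% in DW males. The read shares of the members were not adjusted for it.

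**Figure D1:**
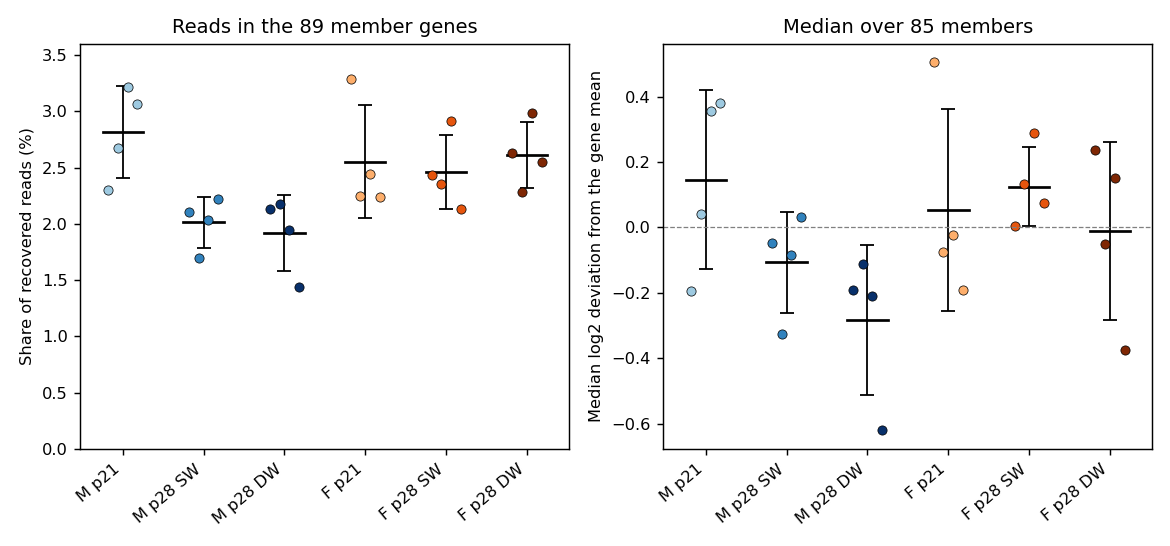
Share of recovered reads in the 89 members (left, %) and median log2 deviation of 85 members from their mean over 24 animals (right), by group. Points are animals, and the line and bars give the mean and SD of 4. M is male and F female. The DW males lie lowest, with means of 1.92% and -0.28, and DW male 87 is the lowest animal in both panels.

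Single animals had extreme values for many members at once. p21 female 30 had the highest value of all animals for 22 of the 85 members, p21 male 53 for 22, DW female 82 for 17 and p21 male 54 for 15. DW male 87 had the lowest value for 44 members and DW female 83 for 25. The median deviation of p21 female 30 was 0.51, while the other p21 females lay between -0.19 and -0.02. Spread between the 24 animals was also wider than for genes at large, with a median SD of 0.38 on the log2 scale for the members and 0.25 for all genes tested. The members' transcripts were short, with a median length of 1049 bases against 3296 for all genes tested. The correlation of a gene's deviation with transcript length was -0.16 in p21 male 53, -0.17 in p21 male 54 and in p21 female 30. It was 0.24 in p21 male 37 and 0.35 in DW male 87, and -0.08 and 0.12 in DW females 82 and 83. Its part in these extreme values was not tested.

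**Figure D2:**
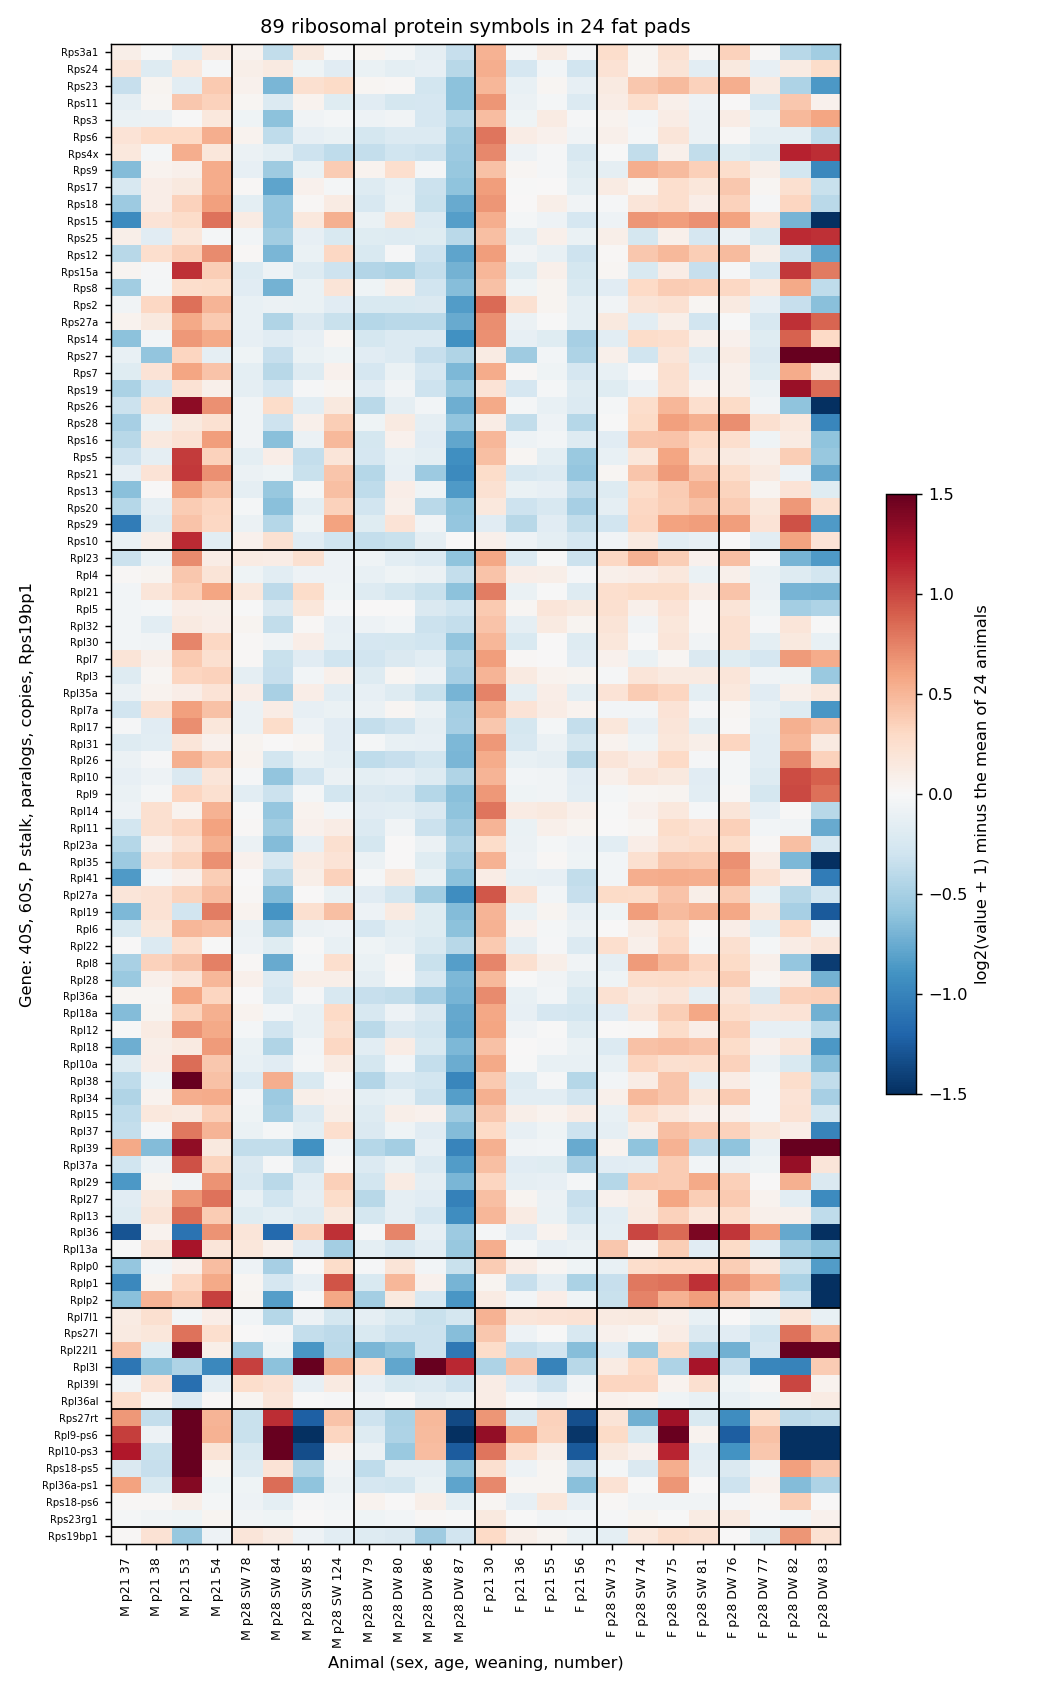
Log2(value + 1) of each of the 89 members (rows) in each of the 24 animals (columns), minus the member's mean over all animals. Colours are capped at 1.5 in either direction, vertical lines separate groups and horizontal lines separate 40S, 60S, P stalk, paralog, copy and other symbols. DW male 87 is low and p21 female 30 high across most rows, and DW females 82 and 83 differ from the other animals in both directions.

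The question of what a week of growth does to the members in males kept with their mother gave the largest number of called members among the 9 comparisons. From p21 to DW at day 28 in males, 18 members fell and none rose (limma, Benjamini-Hochberg adjusted p under 0.05 over 16005 genes, the call rule throughout). This is 20.2% of the members. Of all genes tested 6.1% fell and 15% were called in either direction. The fitted change was below 0 in 85 of 89 members, with a median of -0.44 on the log2(value + 1) scale, against a median of 0.02 over all genes. Those that fell were 10 of the 42 60S proteins, 6 of the 30 40S proteins and the paralogs Rps27l and Rpl7l1. Their falls ranged from 1.27-fold to 1.96-fold. The groups did not overlap for 23 members, all lower after DW (25.8%, against 10.7% of all genes), among them 12 of the 18.

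**Figure D3:**
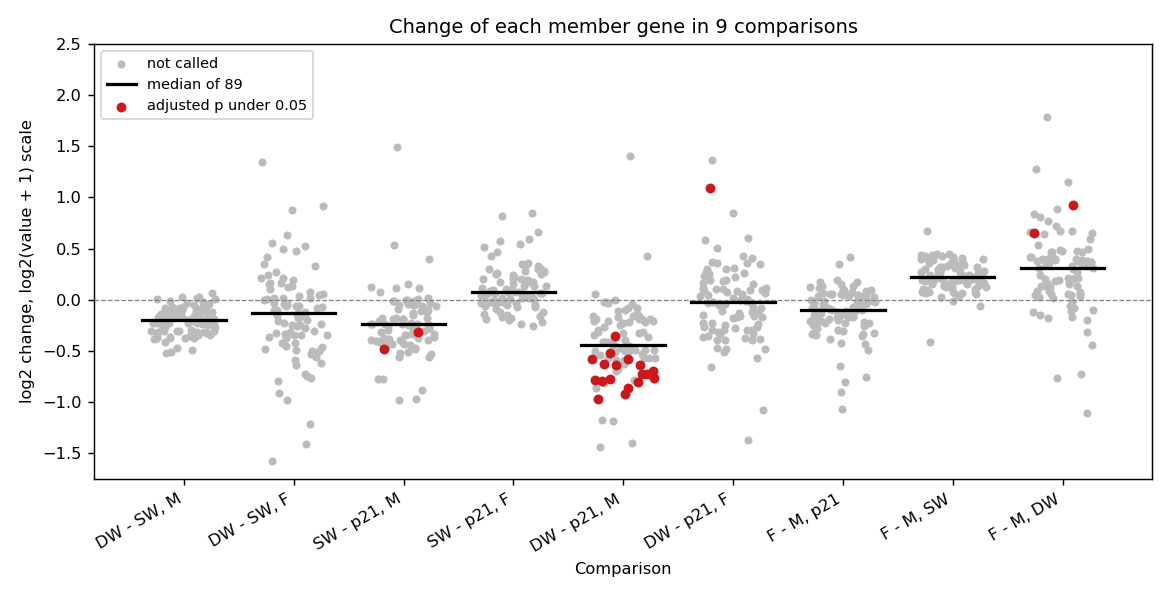
Log2 change, on the log2(value + 1) scale, of each of the 89 members in 9 comparisons. Each point is a gene, red where the adjusted p was under 0.05, and the black line is the median of the 89. M is male and F female. Points fall below 0 in nearly all members in DW against p21 males (median -0.44), and the medians of F against M at day 28 lie above 0 (0.22 after SW and 0.31 after DW).

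Among the 40S proteins Rps6, whose protein is a substrate of the S6 kinases, had the smallest p-value. Only its mRNA was measured here, which is no measure of mTORC1 activity. Its value was 431, 462, 462 and 548 in p21 males and 313, 325, 324 and 260 in DW males. Every DW male lay below every p21 male. The mean fell from 476 to 306, and the log2 change was -0.64 with an SE of 0.148 (adjusted p = 0.00691 by limma). In SW males it was 388, 287, 343 and 350, again below every p21 male (log2 change -0.48, limma adjusted p = 0.0384).

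Rps2, a core protein near the mRNA entry side of the small subunit, was at 215, 277, 394 and 316 in p21 males and at 189, 189, 191 and 124 in DW males. The groups did not overlap, and the mean fell from 301 to 173 (log2 change -0.78, limma adjusted p = 0.0119). Rps21, a small protein needed for maturation of the 40S subunit, showed the widest fall of the 18. It was at 77.8, 97.7, 178 and 137 in p21 males and at 62.6, 77.7, 57.5 and 43.3 in DW males. The 2 groups touch without overlapping, at 77.8 in p21 male 37 and 77.7 in DW male 80, and the log2 change was -0.97 ± 0.252 (SE, limma adjusted p = 0.0134). Rps27a, made as a fusion of ubiquitin with a 40S protein, fell from a mean of 225 to 129 (log2 change -0.79, limma adjusted p = 0.0248). The remaining 2 of the 6 were Rps15a (309 to 162) and Rps7 (203 to 135).

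On the large subunit Rpl12, a protein at the base of the stalk that recruits translation factors, was at 191, 210, 308 and 287 in p21 males. It was at 145, 166, 159 and 112 in DW males, all below the lowest p21 male. Its log2 change was -0.76 ± 0.183 (SE, limma adjusted p = 0.00866). Rpl36a, a protein near the tRNA exit site, was at 202, 203, 300 and 249 in p21 males and at 156, 153, 140 and 122 in DW males. The groups were again apart, and the log2 change was -0.72 ± 0.173 (SE, limma adjusted p = 0.00809). The other 60S members that fell were Rpl6, Rpl10a, Rpl13, Rpl26, Rpl27, Rpl27a, Rpl30 and Rpl38, with log2 changes from -0.92 (Rpl38) to -0.52 (Rpl6). Rpl38 shows how 1 animal can carry a call: it was at 108, 135, 475 and 192 in p21 males and at 104, 119, 116 and 71.2 in DW males, with the 475 in p21 male 53, and without that animal its log2 change was -0.48 (limma adjusted p = 0.21).

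The count in this comparison depended on single animals. It was 4 without p21 male 53 (Rps6, Rpl12, Rpl7l1 and Rpl36a), 3 without DW male 87 (Rps6, Rpl12 and Rpl36a), 9 without p21 male 54 and 28 without p21 male 37. The median change stayed negative under all 18 alternatives, between -0.59 and -0.24. Other tissue moved with age in the same animals: muscle markers averaged 0.89 to 4.53 in p21 and 3.86 to 8.05 in DW males (8 of 12 rose), macrophage markers 4.81 to 5.59 and 6.28 to 6.49 (8 of 8 rose), erythroid markers 5.57 to 6.67 and 4.27 to 4.95 (5 of 7 fell), and lymphocyte markers 5.68 to 6.57 and 5.37 to 5.77 (4 of 12 fell), on the log2(value + 1) scale with no marker at 0 throughout. On the same scale adipocyte markers averaged 9.73 to 10.01 in p21 and 10.15 to 10.59 in DW males, and proliferation markers 3.56 to 3.97 and 3.97 to 4.23. The part of the macrophage, erythroid, adipocyte and proliferation markers in the members' fall was not tested. With the muscle, lymphocyte and mammary marker means of each animal as covariates (the marker covariates below) no member was called. The median was then -0.24, with 73 of 89 changes below 0. Calls over all 16005 genes dropped from 2395 to 421 with these covariates, of which 159 were lower.

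SW males, compared with the same p21 males, had 2 members that fell and none that rose, which is 2.25% of the members. Of all genes 4.97% fell and 11.9% were called in either direction. Beside Rps6 this was Rpl7l1, a paralog of RPL7 found in the nucleolus, at 78.4, 85.1, 69.8 and 76.7 in p21 and 69.8, 53, 67.8 and 59.4 in SW males (log2 change -0.31, limma adjusted p = 0.0481). Its groups meet at 69.8. In DW males Rpl7l1 was at 65.1, 61.1, 56.5 and 59.8, below every p21 male (log2 change -0.35, limma adjusted p = 0.0249). The median change of the 89 members from p21 to SW was -0.24, with 78 below 0, and the groups did not overlap for 10 members, all lower after SW (11.2%, against 7.69% of all genes). This median depended on single animals: it was -0.15 without p21 male 53 (71 below 0), -0.15 without SW male 84 (66 below 0), -0.09 without both (62 below 0) and -0.39 without p21 male 37. The count was 4 without p21 male 37 and 1 without p21 male 53. It was 1, a member that rose, without SW male 84. It was 0 without p21 male 38, p21 male 54, SW male 85 or SW male 124. Markers of other cells moved in the same comparison: 9 of 12 muscle, 6 of 8 macrophage and 4 of 8 adipocyte markers rose, while 5 of 7 erythroid, 4 of 8 proliferation, 3 of 12 lymphocyte and 1 of 8 adipocyte markers fell. With the marker covariates the median of the members was -0.08, with 60 below 0, and none was called. Of all 16005 genes 466 were called with them, 190 of these lower.

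In females the median change with age was close to 0. From p21 to SW 62 of 89 changes were above 0, the median was 0.08 and no member was called. Limma gave 4 members an unadjusted p under 0.05, edgeR and DESeq2 called 0, and 11.6% of all genes were called. The smallest p-values belonged to Rps20 (64.3 to 89.3, limma adjusted p = 0.158), Rps21 (75.8 to 111, limma adjusted p = 0.168) and Rpl7l1 (87.8 to 75.1, limma adjusted p = 0.186). The median was 0.25 without p21 female 30, in which most members were high, and -0.02 without p21 female 56, with 49 below 0, so its direction rested on single animals. It was 0.01 with the trend on transcript length removed. In the same females 7 of 9 mammary and 6 of 8 macrophage markers rose and 3 of 7 erythroid markers fell, and with the marker covariates the median was 0.12.

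From p21 to DW in females 47 changes were below 0, the median was -0.02 and 1 member was called, Rps27, which rose. Of all genes 5.95% rose and 12.1% were called in either direction. Rps27, a zinc-finger protein of the 40S subunit, was at 169, 107, 151 and 112 in p21 females and at 169, 133, 508 and 551 in DW females. The high values are those of animals 82 and 83, and the other 2 DW females lay within the p21 range. Its log2 change was 1.09 (limma adjusted p = 0.028), and 0.18 (limma adjusted p = 0.667) without animals 82 and 83. The count in this comparison was 8 without DW female 76, 5 without DW female 77, 2 without p21 female 30, and 0 without p21 female 36, p21 female 56 or DW female 83. The median was 0.1 without p21 female 30, -0.12 without p21 female 56 and 0.02 without animals 82 and 83. The next smallest p-values were those of Rpl5 (879 to 680, limma adjusted p = 0.064) and Rps20 (64.3 to 96.4, limma adjusted p = 0.0658).

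The 18 members that fell in DW males can be followed in DW females as values. Their log2 changes from p21 ran from -0.48 to 0.36 in females, with 9 of 18 below 0. Rps6 was at 656, 404, 393 and 361 in p21 females and at 379, 340, 339 and 289 in DW females, so the groups overlapped only through p21 female 56. Rpl12 was at 291, 185, 191 and 170 in p21 females and at 246, 177, 177 and 147 in DW females. Rpl36a was at 325, 184, 193 and 169 in p21 females and at 225, 171, 252 and 254 in DW females, overlapping widely. Rps27a was at 297, 172, 181 and 164 in p21 females and 182, 154, 390 and 334 in DW females.

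**Figure D4:**
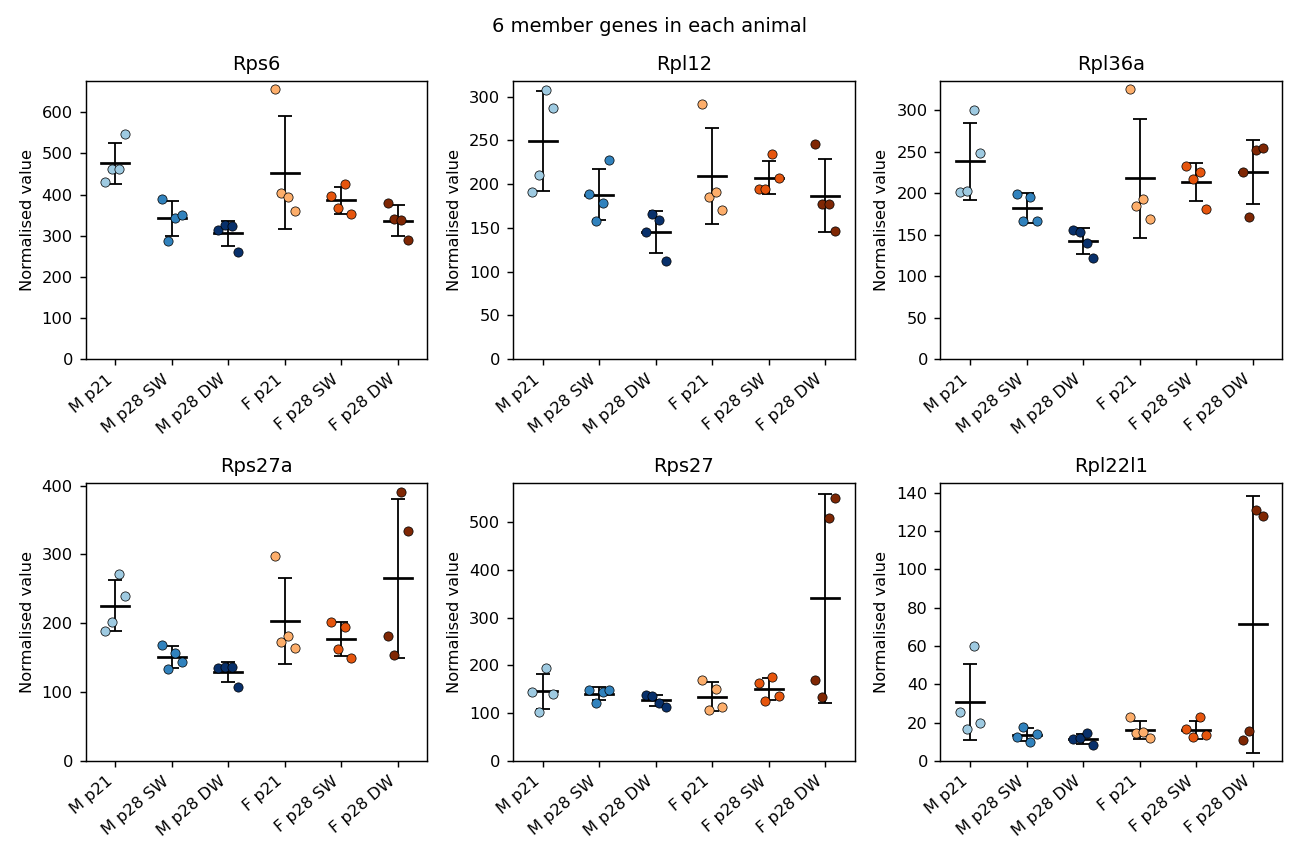
Normalised value of 6 members in each animal, with the mean and SD of 4 animals per group, on axes that start at 0. Rps6, Rpl12, Rpl36a and Rps27a are lower in DW than in p21 males without overlap. Rps27 and Rpl22l1 stand out in DW females 82 and 83, at 508 and 551 and at 131 and 128. M is male and F female.

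Whether the sexes differed in the change with age was tested directly as an interaction. For SW the female change minus the male change was above 0 in 85 of 89 members with a median of 0.35, and no member was called (2 at an unadjusted p under 0.05 by limma, 0 called by edgeR and by DESeq2). The smallest p belonged to Rps21, with a log2 difference of 1.04 ± 0.356 (SE, limma adjusted p = 0.257), and 1.03% of all genes were called. The median was 0.26 without p21 male 53, 0.24 without SW male 84, 0.16 without both, and 0.22 (68 of 89 above 0) with the marker covariates. For DW, an interaction added after seeing the data, the median was also 0.35, 24 members had an unadjusted p under 0.05 and none was called by limma or edgeR, while DESeq2 called 8 of the members and 329 of all 16005 genes. With the marker covariates the median was 0.15, with 58 of 89 above 0. Its smallest limma p-values were those of Rps15a (adjusted p = 0.139), Rps27a (adjusted p = 0.149) and Rpl36a (adjusted p = 0.154), and 0.0687% of all genes were called.

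Delayed against standard weaning at day 28 gave no call in either sex by limma. In males 83 of 89 changes were below 0, between -0.52 and 0.07, with a median of -0.2. Limma gave 1 member an unadjusted p under 0.05, edgeR and DESeq2 called 0, and 0.256% of all genes were called. The groups did not overlap for 8 members, all lower after DW (8.99%, against 3.4% of all genes). The 3 smallest p-values were those of Rpl30 (432 after SW, 342 after DW, limma adjusted p = 0.719), Rpl36a (182 and 143, limma adjusted p = 0.731) and Rpl12 (188 and 145, limma adjusted p = 0.731). Without DW male 87 the median was -0.08 with 71 changes below 0. The correlation of a gene's deviation with transcript length was 0.06 to 0.35 in the DW males, highest in animal 87, and -0.15 to 0.07 in the SW males. With the trend on transcript length removed the median was -0.12, with 75 below 0, and with the marker covariates it was -0.12, with 77 below 0.

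In females the DW minus SW changes ran wider, from -1.57 to 1.35, with a median of -0.13 and 59 of 89 below 0. Limma gave 13 members an unadjusted p under 0.05 and called none, edgeR called 0, DESeq2 called 2 that rose and 290 of all 16005 genes, and limma called 1.27% of all genes. The median was -0.07 without animals 82 and 83 and -0.02 without 83 alone. The smallest p belonged to Rps27 (150 after SW, 340 after DW, limma adjusted p = 0.163), followed by Rpl5 (847 and 680, limma adjusted p = 0.211) and Rps25 (256 and 413, limma adjusted p = 0.216). Without DW female 76 limma called 11 and without DW female 77 it called 4, fits in which animals 82 and 83 are 2 of 3 DW females. For the sex difference in the weaning effect the interaction had a median of 0.04, no member called (5 at an unadjusted p under 0.05 by limma, 0 by edgeR and by DESeq2) and a smallest adjusted p of 0.802 (Rps27), with 0.0187% of all genes called. Its median was 0.12 without animals 82 and 83, 0.11 without SW male 84 and -0.07 without DW male 87.

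Comparing the sexes at the same age, females were lower than males in 62 of 89 members at p21, with a median of -0.1 and none called (1 at an unadjusted p under 0.05 by limma, 0 by edgeR and by DESeq2, 0.356% of all genes called). The smallest p-values were those of Rps21 (75.8 in females, 123 in males, limma adjusted p = 0.479), Rpl7l1 (87.8 and 77.5, limma adjusted p = 0.652) and Rps10 (0.459 and 0.973, limma adjusted p = 0.672). The p21 median depended on single animals: it was -0.02 without p21 male 53 (51 of 89 below 0), -0.03 without p21 male 54, -0.01 without p21 female 56, -0.24 without p21 female 30 (78 below 0) and -0.25 without p21 male 37. With the marker covariates it was -0.03. At day 28 after SW females were higher in 86 of 89 members, with a median of 0.22 and again none called (1 at an unadjusted p under 0.05 by limma, 0 by edgeR and by DESeq2, 3.54% of all genes called). There the smallest p-values were those of Rpl7l1 (75.1 and 62.5, limma adjusted p = 0.255), Rpl27a (303 and 226, limma adjusted p = 0.575) and Rpl22 (261 and 219, limma adjusted p = 0.582). With the marker covariates the SW median was 0.2, with 58 of 89 above 0.

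After DW females were higher in 73 of 89 members, with a median of 0.31, and 2 members were called, both higher in females. Of all genes 1.89% were called higher and 2.46% in either direction. Rps27a averaged 265 in females and 129 in males (log2 difference 0.93, limma adjusted p = 0.0291), and the males, at 135, 137, 137 and 108, all lay below the lowest female at 154. Rpl36a averaged 226 in females and 143 in males (log2 difference 0.65, limma adjusted p = 0.0474), with every female at 171 or above and every male at 156 or below. Females were higher without overlap for 14 members (15.7%, against 5.6% of all genes). With animals 82 and 83 left out together no member was called, the log2 difference of Rps27a was 0.38 and that of Rpl36a was 0.46. Leaving out either of these 2 females, or any single DW male, also left no call, while 15 were called without DW female 76 and 18 without DW female 77. Markers of mammary epithelium, which grows into this depot, were higher in females for 9 of 9 genes after SW and 8 of 9 after DW. Their mean was 3.34 to 4.12 in DW females and 0.67 to 1.45 in DW males on the log2(value + 1) scale. With the marker covariates, which left 5 of all 16005 genes called, the median after DW was 0.11, with 50 of 89 above 0. It was 0.22 with the trend on transcript length removed (64 above 0).

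The 3 P stalk proteins, which form the flexible arm that binds elongation factors, included no called gene. Rplp0, the anchor, was at 356, 520, 559 and 734 in p21 males and at 529, 613, 521 and 422 in DW males (log2 change -0.02, limma adjusted p = 0.957). Rplp1 was at 65.5, 133, 160 and 192 in p21 males and at 110, 182, 135 and 79.4 in DW males (log2 change -0.08, limma adjusted p = 0.929). Rplp2 was at 60.8, 135, 124 and 192 in p21 males and at 66, 104, 79.4 and 50.8 in DW males (log2 change -0.7, limma adjusted p = 0.208). The groups overlapped for all 3. Each was lower in p21 male 37 than in the other p21 males, and Rplp1 was lowest of all animals in DW female 83, at 25.2. Rpl36, a 60S protein, varied most among the ordinary subunit proteins (SD 0.93 on the log2 scale), from 6.61 in DW female 83 to 124 in SW female 81.

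DW females 82 and 83 differed from the other 22 animals for 16 of the 85 members with a mean value of at least 1. Both lay above all others for 10 members (11.8%), near the 12.7% of all genes, and below all others for 6 (7.06%, against 14%). The largest ratio was that of Rpl22l1, the paralog of Rpl22 that can replace it in the 60S subunit, at 131 and 128 against a median of 14.6 in the others. The others ran from 8.34 to 59.9, the highest being p21 male 53, so animals 82 and 83 were 8.92 and 8.72 times the median. Rpl22 itself was at 252 and 264, within the range of the others (175 to 307). Rpl39, a small 60S protein that lines the exit tunnel, was at 402 and 355 against 50.2 to 255 in the others. Rps27, Rps4x (739 and 720 against 228 to 550), Rps25, Rps27a, Rps19, Rpl9, Rpl10 and Rps3 were the others that lay above. Those below were Rps3a1, Rpl5, Rpl21, Rpl23, Rpl35 and the copy Rpl10-ps3. Rps3a1 was at 928 and 859 against 958 to 1785. In these libraries the correlation of a gene's deviation with transcript GC content was -0.41 and -0.59, the mitochondrial share was 13.2% and 13.7%, and the proliferation markers averaged 4.92 and 4.71, the highest of all animals. Such a GC correlation was also seen in p21 male 37 (-0.47), and such a mitochondrial share in p21 male 38 (13.2%). The part of these traits in the values of animals 82 and 83 was not tested.

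Of the other paralogs Rpl3l, the form of Rpl3 made in striated muscle, was at 0.0259, 0.423, 0.57 and 0.108 in p21 males. It was at 3.41, 0.42, 6.87 and 2.22 in SW males and at 1.58, 0.27, 7.09 and 3.74 in DW males. SW male 84 and DW male 80 lay within the p21 range and the others above it, and neither change passed the threshold (log2 changes 1.49 and 1.41, limma adjusted p = 0.0581 and 0.0647). The highest values, in DW male 86 and SW male 85, came with muscle marker means of 8.05 and 8.9, and SW male 84 and DW male 80 had 4.48 and 3.86, the lowest of their groups. Rpl3 was at 410 and 402 in SW male 85 and DW male 86, near the values of the other day 28 males. Rps27l, a p53-inducible paralog of Rps27, was at 42.6, 43.8, 69.3 and 46.4 in p21 males and at 33.1, 30.8, 30.9 and 24.5 in DW males, apart from each other (log2 change -0.72, limma adjusted p = 0.0211). Rpl39l, known from testis, lay between 0.169 and 4.14 and Rpl36al averaged 0.155.

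Of the 7 copies 2 had the largest spread of all members, while Rps23rg1 and Rps18-ps6 were among the least variable. The SD between animals on the log2 scale was 1.19 for Rpl10-ps3 and 1.18 for Rpl9-ps6, against 1 for Rpl22l1 and 0.91 for Rpl3l. Rpl9-ps6 was at 70.9 in p21 male 53 and 37 in SW male 84, and Rpl10-ps3 at 56.6 and 29.3, the highest values of all animals for both. Rps27rt, a retrotransposed copy of Rps27 that is translated, was at 107 in p21 male 53, 52.1 in SW female 75 and 46.6 in SW male 84. Set against its parent in the same library, Rpl10-ps3 was 21.9% and 14.7% of Rpl10 in animals 53 and 84, against 0.0705% to 5.22% in the other 22. Rpl9-ps6 was 19% and 15.6% of Rpl9, against 0.308% to 11.3%. Rps27rt was 55.2% and 38.1% of Rps27, against 2.93% to 29.7%. Reads of a copy and its parent cannot always be told apart, and how such reads were counted is not stated, so these values, those of low members such as Rps10 (mean 0.601), Rps18-ps6 (0.326) and Rps23rg1 (0.0452), and those of parents with many copies are uncertain. The least variable ordinary members were Rpl4 (SD 0.18) and Rpl32 (SD 0.19). The most reads fell in Rps3a1, Rps24 and Rpl23, with mean values of 1255, 1161 and 1026.

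Proteins of the ribosome outside the symbol rule were few. Rpsa, the laminin-binding protein of the 40S subunit, fell from 1489 ± 133 (SD, n = 4) to 1113 ± 107 in DW males (log2 change -0.42, limma adjusted p = 0.0273). In DW females it fell from 1581 ± 223 to 1183 ± 148 (log2 change -0.42, limma adjusted p = 0.0319). Rack1, a scaffold on the small subunit, went from 305 to 209 in DW males (log2 change -0.53, limma adjusted p = 0.0681) and Fau, the precursor of RPS30, from 64 to 38.1 (log2 change -0.64, limma adjusted p = 0.156).

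Genes of the machinery that builds ribosomes fell with age in both sexes. Of 64 ribosome biogenesis genes 34 fell from p21 to SW in males (median -0.38) and 26 in females (median -0.32), and none rose. From p21 to DW 26 fell in males and 27 in females, with medians of -0.33 and -0.4. The same background holds: 4.97%, 4.23%, 6.1% and 6.16% of all genes fell in these 4 comparisons. After SW, where males and females share no animals, 22 genes fell in both sexes. This is 64.7% of those in males and 84.6% of those in females. The same overlap was not counted over all genes tested, so these shares cannot be read as particular to the biogenesis genes. The calls in both sexes also came from the same limma fit, with a shared variance. The list was written with earlier results of these data known. With the marker covariates its counts were 10 and 2 after SW and 8 in DW males. In DW females the fewest, 4, came from fitting only the compared groups. Over all 16005 genes the marker covariates left 190 and 103 lower after SW and 159 in DW males. In DW females the marker covariates went the other way, with 1137 of all genes lower against 986 without them. Fitting only the compared groups left 148 of all genes lower in DW females. Leaving out SW male 84 gave 18 after SW in males, leaving out SW female 74 gave 16 in females, and leaving out DW male 87 gave 14 in DW males.

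Dkc1, the pseudouridine synthase of the box H/ACA particles, had the smallest p of the list in both sexes after SW, falling from 81.8 ± 10.2 (SD, n = 4) to 48 ± 0.759 in males (log2 change -0.75, limma adjusted p = 2.4e-05). In females it fell from 78.9 ± 4.62 to 47.8 ± 5.03 (log2 change -0.72, limma adjusted p = 1e-05). Nop56 and Nop58, the core proteins of the box C/D particles that guide rRNA methylation, fell in SW males from 65.3 to 39.7 and from 49.3 to 25.5. In SW females they fell from 72.1 to 41.2 and from 51.3 to 32.6. Ltv1, a factor of 40S maturation, fell from 43.9 to 28.6 in DW males (log2 change -0.6, limma adjusted p = 0.000116), and nucleolin (Ncl) from 596 to 377 in DW females (log2 change -0.68, limma adjusted p = 0.00088). No gene of this list was called between DW and SW, or between the sexes, by limma.

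**Figure D5:**
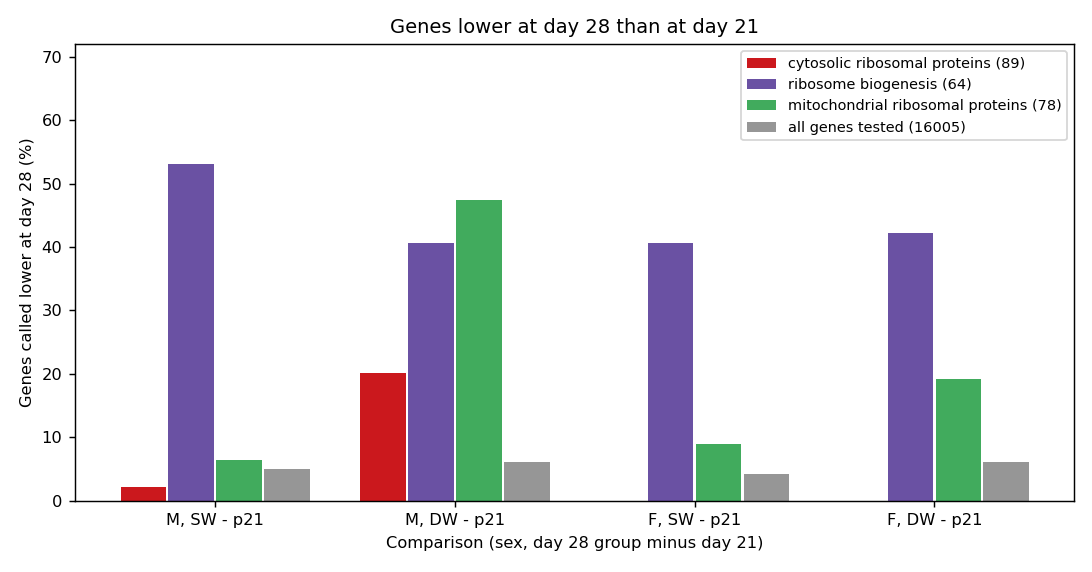
Percent of genes called lower at day 28 than at p21 (limma adjusted p under 0.05) in 4 comparisons, for the 89 members, 64 ribosome biogenesis genes, 78 mitochondrial ribosomal proteins and all 16005 genes tested. The 2 comparisons within a sex share their p21 animals. For the members the share is 20.2% in DW males, 2.25% in SW males and 0 in both female groups, while the biogenesis genes were called lower in all 4.

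Mitochondrial ribosomal proteins, which serve the separate ribosome inside mitochondria, fell in 37 of 78 cases from p21 to DW in males (median -0.43), in 15 in DW females (1 rose), 5 in SW males and 7 in SW females. The shares of all genes that fell in these comparisons were 6.1%, 6.16%, 4.97% and 4.23%, and the 5 of 78 in SW males is near its background. The counts of the lists that follow are to be read against the same shares. Neither those counts nor the ones of the mitochondrial ribosomal proteins were repeated with another tool, with the marker covariates or without single animals. Of 14 tested elongation factors and other TOP mRNAs, 5 fell in DW males: Eef1g, Npm1, Btf3, Tpt1 and Eef1b2. Eef1g also fell in SW males (352 to 239), SW females (368 to 281) and DW females (368 to 250). Of 33 initiation factors 7 fell in DW males and 10 in DW females, and of 25 genes of RNA polymerases I and III and their factors 4 and 8. Of 19 genes of mTORC1 and TOP mRNA translation 3 fell in DW males (Eif4e, Cnbp and Pdcd4) and 6 in DW females (Larp1, Rps6kb1, Larp4, Mtor, Eef2k and Eif4ebp2). None of the genes of these 4 lists rose from p21 to DW in either sex. Falls were also called after SW. Among the initiation factors Eif1ax, Eif2b3, Eif3j1, Eif4a1 and Eif4e fell in SW males, and Eif3c, Eif3l and Eif4a1 in SW females. Of the polymerase genes Polr1a, Polr1b, Polr1f and Polr3g fell in SW males, and Polr1a, Polr1b and Polr3e in SW females. Npm1, Hnrnpa1 and Pdcd4 also fell in SW males. Eif4e is on both the initiation factor and the mTORC1 list. In DW females Larp1 was at 165, 157, 107 and 104, with the 2 low values in animals 82 and 83, against 199 ± 19.6 (SD, n = 4) at p21.

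The authors' deposited table, made with DESeq2 per the submitters' processing notes, called members in 8 of the 9 comparisons at an adjusted p under 0.05. From p21 to DW in males the authors' deposited table has 49 members lower and 1 higher, with 14.7% of all its genes lower. From p21 to SW in males the authors' deposited table has 18 lower and 1 higher, with 13.6% of all its genes lower. Between the sexes after DW the authors' deposited table has 31 members higher in females and 1 lower, with 11.8% of all its genes higher. For DW against SW the authors' deposited table has 0 members in males, and 10 higher and 3 lower in females, where 9.16% of all its genes were higher and 7.77% lower.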

How the data were processed

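The authors deposited 1 table of normalised signal per gene and library, with read numbers divided by 1 factor per library. Reads were trimmed with fastp, aligned with HISAT2 to mm10 and counted with featureCounts, and DESeq2 1.38.3 was used, per the submitters' processing notes, and how multi-mapped reads and strand were treated is not given in the sources used here. In every library 100% of values were whole multiples of what 1 read is worth there (within 0.01 of a whole number), so whole reads were recovered. The authors also deposited log2 fold changes and adjusted p-values, used only where their table is named. Deposited gene positions did not match GRCm38 annotation and are not printed.

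Of 16208 rows, 90 repeats were left out. Values were tested with limma 3.58.1 (lmFit, eBayes with a trend, R 4.3.3) on log2(value + 1), which understates changes of low genes. All 24 animals entered 1 fit of 6 group means with 18 residual degrees of freedom, over 16005 genes kept by filterByExpr (minimum count 10 on recovered reads), and were called at a Benjamini-Hochberg adjusted p under 0.05. edgeR 4.0.16 with TMM on the recovered reads called 22 members from p21 to DW in males (1 higher) and DESeq2 1.42.0 called 31. The deposited scaling was 0.972 to 1.036 times that of TMM. On simulated data of 16005 genes for the p21 to DW comparison in males, limma found 136 of the 200 genes given a log2 change of 1 (68%), with 13 false calls. edgeR found 139 with 12 false calls and DESeq2 161 with 27. The called falls of members were smaller, from -0.35 to -0.97, and changes of that size were not simulated.

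Groups follow the age, sex and weaning labels. Where titles and descriptions disagree on age (the p21 libraries), descriptions were followed. Replicates are separate animals, and the smallest chi-square per degree of freedom over 36 replicate pairs was 77.4, so none was merged. Members and gene lists were chosen with earlier results of these data known. Named genes are the called members (up to 5 per direction) or, where fewer than 2 were called, the 3 with the smallest p-values, the members most and least abundant and variable, the P stalk, the paralogs, and called genes of the lists. Members named in addition, and DW females 82 and 83, were chosen after their values were seen. Alternatives were another tool, pseudocount 0.1, no filter, only the compared groups, median centring and leaving out animals. Others removed GC or length trends (lowess span 0.3) or took muscle, lymphocyte and mammary marker means as covariates. The run of animal numbers was a covariate among day 28 animals only, so no comparison with p21 was adjusted for it. The length trend, the 2 pairs of animals left out together and the sex by age interaction for DW were chosen after seeing the data.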

Additional observations from a re-analysis of the deposited data

Results flagged for a closer look

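In all 179 groups of 4 animals, those of the 29 named members among them, were checked for 1 outlying animal. The rule was that its gap to the nearest other exceeded Dixon's 95% critical share of the group's range. This was met 12 times, where 1 in 20 of the groups would be 8.9. The named members share the same animals and were partly chosen by their values, so 8.9 is not a strict chance expectation. DW male 87 was low for Rps2 (124, others 189 to 191), Rps27a (108, others 135 to 137), Rps6 (260, others 313 to 325) and Rpl13 (39.6, others 63.2 to 69.4). p21 female 30 was high for Rps27a (297, others 164 to 181), Rpl10a (223, others 138 to 149) and Rpl7l1 (103, others 81.4 to 83.6). SW male 84 was low for Rpl6 (168, others 228 to 231) and Rps27 (122, others 145 to 149), and SW male 124 was high for Rpl13 (84.7, others 66.9 to 68.9). SW female 73 was low for Rplp0 (493, others 642 to 659), and DW female 82 was high for Rpl39l (4.14, others 1.45 to 1.66).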

How the results depend on the processing

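No paired analysis was possible because animal numbers are not shared between groups. Members called from p21 to DW in males numbered 18, against 31 by DESeq2, 0 with marker covariates, 5 without p21 male 53 and SW male 84, and 3 to 28 when 1 animal was left out. From p21 to SW in males the 2 became 4 by DESeq2, 0 with marker covariates, 1 with only the compared groups, 4 with the length trend removed, 1 without animals 53 and 84, and 0 to 4 without 1 animal. From p21 to DW in females the 1 became 3 by edgeR, 4 by DESeq2, 3 with marker covariates, 0 with only the compared groups, 2 after median centring, 4 with the length trend removed (3 of them lower), 0 without DW females 82 and 83, and 0 to 8 without 1 animal. Females against males after DW, 2 became 9 by edgeR, 16 by DESeq2, 0 with marker covariates, 0 with only the compared groups, 5 with the GC trend removed, 0 with the length trend removed, 0 without animals 82 and 83, and 0 to 18 without 1 animal. Where limma called 0, DESeq2 gave 2 for DW against SW in females and 8 for the sex by age interaction after DW, fitting only the compared groups gave 2 from p21 to SW in females, and leaving out 1 animal gave 0 to 11 for DW against SW in females. The causes were not tested. No called member changed direction in the comparison that called it under any alternative run. Rps6, Rpl12 and Rpl36a each kept their call from p21 to DW in males in 17 of 18 alternatives, all but the marker covariates.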
